A study of Homo sapiens with 16 samples.

Results

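The genes followed here encode histone variants that cells also make outside S phase, or linker histones of the same kind, and were measured by RNA-seq in U2OS, an established human osteosarcoma cell line. They were picked by name, 8 of the 58735 genes in the deposited table, by a rule that uses no measured value, and 7 of them are described: H1FX, H2AFZ, H2AFV, H2AFJ, H2AFY, H3F3A and H3F3B. One arm was transfected with a control siRNA that has no target (siNT) and the other with siRNA to SETD2 (siSETD2), the gene for the methyltransferase that places the third methyl group on lysine 36 of histone H3. At 48 h after transfection, by the design text, cells had for 4 h no drug, 2 mM hydroxyurea (HU, which blocks ribonucleotide reductase and starves replication forks of deoxynucleotides), 2 µM VE-822 (an inhibitor of the checkpoint kinase ATR), or both drugs together. Each of the 8 groups has 2 libraries, R1 and R2, 16 in all. Nothing in the labels states whether the 2 libraries of a group come from separate cultures, so the p-values below reflect how far libraries of a group differ, and that difference may be purely technical. All values come from this 1 tumour line.

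Most histone proteins are made from replication-dependent genes, whose mRNAs end in a stem-loop instead of a poly(A) tail and are plentiful only while DNA is copied. The variant genes work differently: their mRNAs are spliced or at least polyadenylated, and their proteins replace or add to the standard histones throughout the cell cycle. H3.3, made by H3F3A and H3F3B, is laid down at active genes by the HIRA complex and at telomeres and other repeats by ATRX and DAXX. H2A.Z, made by H2AFZ and H2AFV, marks the nucleosomes that flank promoters. MacroH2A1, from H2AFY, is best known from silent chromatin, and H2A.J, from H2AFJ, accumulates in senescent cells. The linker histone H1.X, from H1FX, binds the DNA where it enters and leaves the nucleosome.

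Both H3.3 genes encode the same protein, and their sequences are shown around lysine 36 because SETD2 acts on that residue. The lines run from codon 28 to codon 47 of each coding sequence with the start codon counted, 60 bases each from GENCODE release 29 transcripts, and the capitals mark codon 37, which is lysine 36 in the usual numbering. The third line is H3F3AP4, a processed pseudogene of H3F3A to which fragments were also assigned.
H3F3A: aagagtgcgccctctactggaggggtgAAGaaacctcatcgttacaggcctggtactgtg
H3F3B: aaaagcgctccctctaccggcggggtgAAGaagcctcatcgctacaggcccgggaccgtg
H3F3AP4: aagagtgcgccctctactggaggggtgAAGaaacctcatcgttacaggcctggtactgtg
H3F3A and H3F3B differ at 10 of these 60 bases and at 88 of the 411 bases of the whole coding sequence (78.59% identity), with no identical run longer than 14 bases. H3F3AP4 has none of these differences from H3F3A: all 411 of its bases match the H3F3A coding sequence. Fragments that lie within the coding bases of one therefore cannot be told apart from the other by sequence. H2AFZ and H2AFV differ at 76 of 387 coding bases (80.36% identity), with a longest identical run of 23 bases.

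Promoter sequences are given for the H2A.Z pair, whose levels moved together most closely of all pairs of these 7 genes, and for H1FX. They come from RefSeq (GRCh38.p14), which lists the genes as H2AZ1, H2AZ2 and H1-10, and all 7 genes had an entry. The lines give the gene's strand, up to 250 bases before the start of transcription, without bases that GENCODE places in an exon of the gene. For H2AFZ this left 137 of the 250 bases, chr4:99950389-99950525, on the minus strand. H2AFV is shown at chr7:44848088-44848337 and H1FX at chr3:129316287-129316536, both on the minus strand. Capitals mark CCAAT on either strand (ATTGG where reversed) and TATAAA.
H2AFZ: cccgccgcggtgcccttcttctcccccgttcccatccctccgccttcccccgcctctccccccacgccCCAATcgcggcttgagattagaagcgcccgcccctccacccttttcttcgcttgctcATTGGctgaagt
H2AFV: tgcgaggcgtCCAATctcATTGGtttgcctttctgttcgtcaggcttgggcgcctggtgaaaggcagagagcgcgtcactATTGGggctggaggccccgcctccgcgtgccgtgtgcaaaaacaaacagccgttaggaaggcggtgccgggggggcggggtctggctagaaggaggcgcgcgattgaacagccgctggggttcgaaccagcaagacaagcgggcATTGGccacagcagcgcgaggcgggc
H1FX: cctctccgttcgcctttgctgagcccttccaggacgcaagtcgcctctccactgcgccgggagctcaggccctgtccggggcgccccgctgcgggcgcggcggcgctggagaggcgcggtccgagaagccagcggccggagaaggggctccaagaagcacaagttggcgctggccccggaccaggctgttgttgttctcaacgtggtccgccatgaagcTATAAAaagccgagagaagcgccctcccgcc
CCAAT occurs 2 times in the stretch shown for H2AFZ, and in the full 250 bases it occurs 3 times in H2AFZ, 4 times in H2AFV, 4 times in H3F3B, 3 times in H2AFJ and 0 times in H1FX. H2AFY has 2 windows, with 0 and 2 matches, and H3F3A has 4 windows, with 0 to 1 match each. Over all 35116 promoter windows of that length, 32% hold it at least once on either strand. TATAAA lies in the windows of H1FX, H2AFZ and H3F3B, and 10.7% of all windows hold it on either strand. Searched the same way, the E2F-type motifs TTTGGCGC and TTTCGCGC (in 0.55% and 0.439% of all windows) and the motif TTTGAA (13.3%) were in none of the members' windows. These are matches of letters, with no measurement of binding.

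In the 16 libraries 22310806 to 31101932 fragments were recovered per library. The lowest of these genes, H2AFJ, had 138 to 287, and the others had 1024 or more. The size of the counting error was not estimated. SETD2 itself lay between 2.01 and 4.62 FPKM in the 8 siSETD2 libraries and between 7.34 and 9.25 FPKM in the 8 siNT libraries (log2 fold change -1.09, adjusted p = 0.0169), where FPKM is fragments per kilobase of exon, scaled to library size. The 4 libraries given VE-822 alone stood apart from the other 12: 24.7% of the 13088 genes tested were called against untreated cells, and their difference between R1 and R2 correlated less with those of the other 6 groups than these did with each other. Of 6 markers of bone or of this line, SPARC (mean 164.6 FPKM), VIM (117.7) and COL1A1 (21.6) were plentiful, RUNX2 was at 2.55 FPKM, and COL1A2 and ALPL were near 0, at 0.0108 and 0.135 FPKM. Of 10 markers of other cell types, 7 were under 1 FPKM, and KRT18 (63.8), EPCAM (1.85) and CD3D (1.71 FPKM) were above it.

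**Figure D1:**
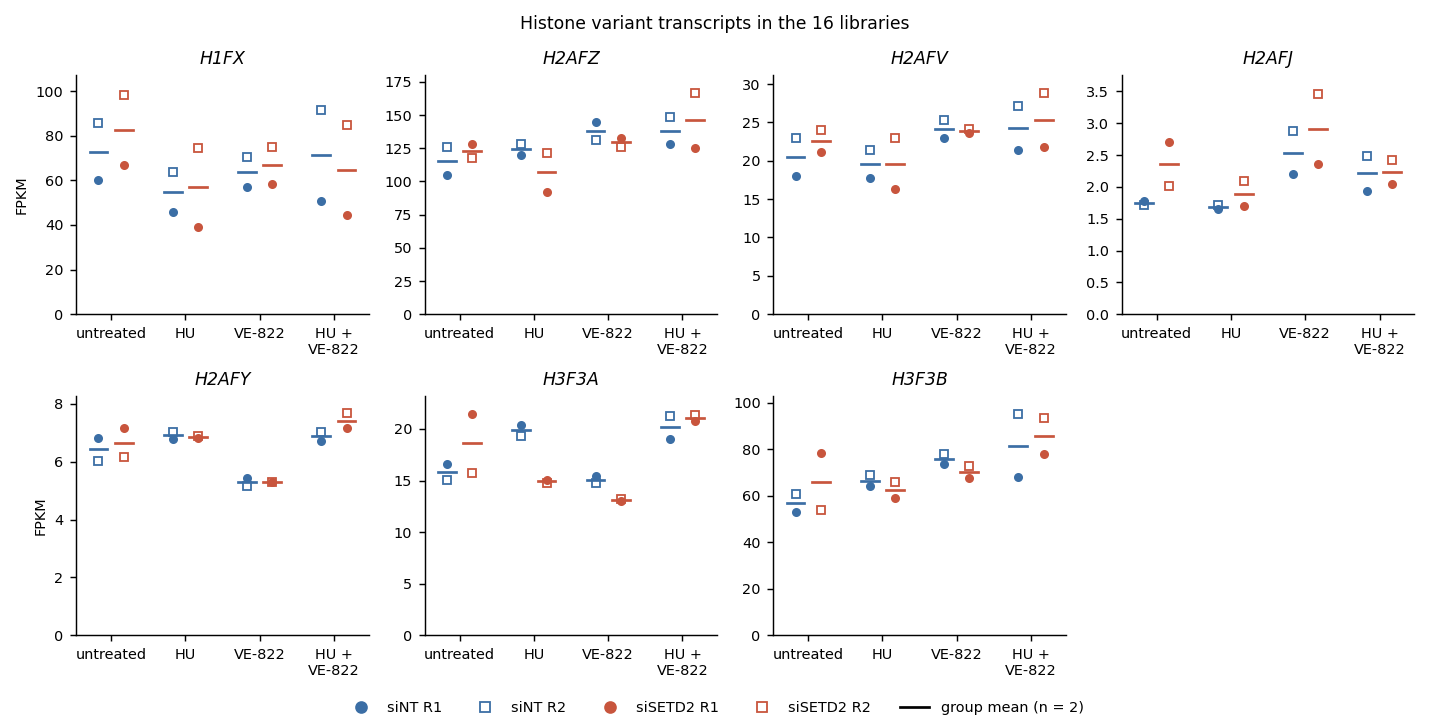
FPKM (vertical axis, from 0) of the 7 genes by treatment, with 1 point per library, filled for R1 and open for R2, blue for siNT and red for siSETD2, and a bar at the mean of the 2 libraries of a group. H1FX is lower in R1 than in R2 in every group, and H2AFY is lowest in VE-822 alone, at 5.15 to 5.44 FPKM.

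All 7 genes were expressed in every library and all passed the filter on low values, a mean of 1 FPKM or more. H2AFZ (ENSG00000164032, chr4:99948086-99950388 in GRCh38, minus strand) had the highest mean, 127.6 FPKM, with a range of 92.3 to 166.7. H3F3B (ENSG00000132475, chr17:75776434-75785893, minus strand) followed at 70.6 FPKM (53.0 to 95.2), below H2AFZ in 16 of 16 libraries although the ranges of both genes overlapped. H1FX (ENSG00000184897, chr3:129314771-129316277, minus strand, 1 exon) had 66.7 FPKM (39.2 to 98.4) and lay below H3F3B in 11 of 16 libraries, so that these neighbours did not differ beyond their spread. H2AFV (ENSG00000105968, chr7:44826791-44848083, minus strand) had 22.5 FPKM (16.3 to 28.8), and H3F3A (ENSG00000163041, chr1:226061851-226072001, plus strand) had 17.3 FPKM (13.1 to 21.5). H2AFV was the higher of that pair in 14 of 16 libraries. H2AFY (ENSG00000113648, chr5:135333900-135399914, minus strand) at 6.47 FPKM (5.15 to 7.69) and H2AFJ (ENSG00000246705, chr12:14774383-14778002, plus strand) at 2.20 FPKM (1.65 to 3.46) were the lowest, and their ranges did not overlap with each other or with the genes above them.

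The order rests in part on the length used. The deposited FPKM divide by all annotated exons of a gene merged, which for H2AFY came to 17730 bases against 2789 for its principal transcript, and for H2AFV to 4749 against 752. Divided by the principal transcript instead (an added calculation that leaves changes between libraries as they are), the means were 300.2 for H2AFZ, 160.2 for H3F3B, 142.1 for H2AFV, 66.7 for H1FX, 41.7 for H3F3A, 41.1 for H2AFY and 11.4 for H2AFJ. H2AFZ stayed first and H2AFJ last, and H3F3A and H2AFY could no longer be ordered, with H3F3A the higher in 9 of 16 libraries. Genes on the opposite strand share exon bases with some of these genes, and the strand setting of the counting is not given in the sources used here. H1FX-AS1 shares 22.9% of the exon bases of H1FX and had a mean of 0.989 FPKM, C5orf66 shares 28.02% of those of H2AFY at 0.228 FPKM, and UNK shares 3.49% of those of H3F3B at 5.43 FPKM.

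The first comparison was that of HU with no drug, which asks how 4 h of fork stalling changed these transcripts. None of the 7 genes was called, and the linker histone gene H1FX had the largest difference of the 7. Untreated cells had 60.1 FPKM in R1 and 85.6 in R2 with siNT, and 66.8 and 98.4 with siSETD2. Cells in HU had 45.9 and 63.9 FPKM with siNT, and 39.2 and 74.4 with siSETD2. Each HU library was below the untreated library of the same siRNA and number, while the groups as a whole overlapped. The labels do not pair libraries by number, and how many of all genes show that order was not counted. Averaged over both siRNAs, the log2 fold change of H1FX, on the log2(FPKM + 1) scale used throughout, was -0.49 (SE 0.284, 95% interval -1.11 to 0.14). The adjusted p was 0.771 in the limma fit without a term for the replicate number, and 0.0682 with the number as a block in 6 groups (all but VE-822 alone). Of all genes tested, 0.107% were called without the block and 1.6% with it. The value was -0.57 among R1 libraries and -0.41 among R2 libraries, and it moved to -0.26 without the siSETD2 HU R1 library and to -0.71 without the siSETD2 HU R2 library. In bulk RNA, less transcript in every cell and fewer cells that carry it cannot be told apart.

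The difference of H1FX in HU was -0.40 with siNT and -0.58 with siSETD2 (adjusted p = 1 and 0.999). The responses differed by -0.18, with an interval of -1.43 to 1.08. The other 6 genes lay between -0.14 (H2AFV) and 0.08 (H3F3B), with adjusted p-values of 0.949 or more in the limma fit. The median of the 7 was -0.05, against 0.01 over all genes tested. None of the 7 had all HU libraries above all untreated ones, as 2.11% of genes tested did, or all below them, as 2.19% did.

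VE-822 added to HU was compared with HU alone, which asks what ATR inhibition changes in cells whose forks are stalled. All 7 genes were higher on average with both drugs, by 0.05 (H2AFY) to 0.36 (H3F3B), with a median of 0.25 against 0.01 over all genes tested. That direction was not particular to them: 10 of 10 listed genes that place H3.3 and 13 of 15 tested for H2A.Z exchange were also higher. None of the 7 was called, where 0.00764% of genes tested were. None had all 4 libraries with both drugs above all 4 with HU, as 3.84% of genes did. With the block H2AFV was called, at 0.33 (SE 0.142 and adjusted p = 0.581 without the block, 0.0470 with it, where 1.31% of genes were called), but not once the VE-822-alone libraries were left out (adjusted p = 0.107 with the block). H2AFV had 17.8 and 21.4 FPKM in HU and 21.4 and 27.1 in both drugs with siNT, and 16.3 and 23.0 against 21.8 and 28.8 with siSETD2 (R1 and R2). The groups overlapped, while each library with both drugs was above the HU library of the same siRNA and number. How many of all genes show that order was not counted. H1FX held 51.0 and 91.6 FPKM with siNT and 44.4 and 84.7 with siSETD2 in both drugs, with R1 and R2 farther apart than the means of the treatments. Its change from HU was 0.25 (SE 0.284, adjusted p = 0.879) and that from untreated cells -0.23 (adjusted p = 0.761).

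H3F3B was the member with the largest difference between both drugs and no drug in the upward direction. It had 68.0 and 95.2 FPKM in R1 and R2 with siNT against 53.0 and 60.7 untreated, and 77.9 and 93.6 FPKM with siSETD2 against 78.3 and 53.8 untreated. The groups overlapped through the untreated siSETD2 R1 library, and the log2 fold change of 0.44 (SE 0.142) had an adjusted p of 0.203, and of 0.0658 with the block, where 0.0382% and 7.3% of genes were called. Leaving out that library gave 0.58 (adjusted p = 0.0460), and for H3F3A it gave 0.36 (adjusted p = 0.0374) in place of 0.26 (adjusted p = 0.268), in a fit where 3.29% of all genes were called. Leaving out the untreated siSETD2 R2 library instead gave 0.31 for H3F3B and 0.15 for H3F3A (adjusted p = 0.307 and 0.391).

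**Figure D2:**
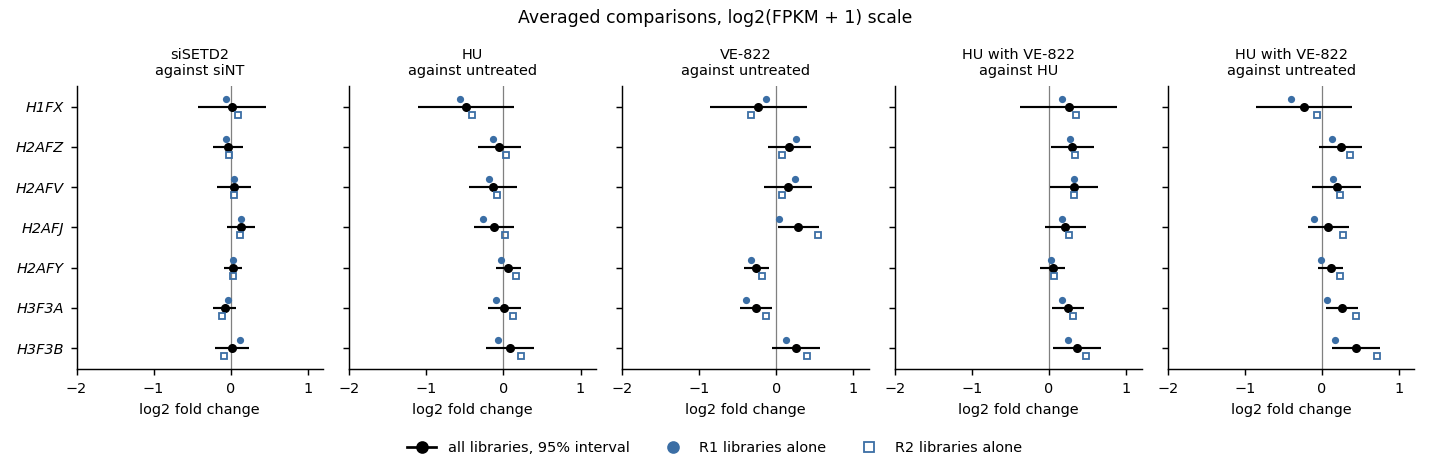
Log2 fold change (horizontal axis) of each gene in 5 comparisons averaged over the other factor, with black points and 95% intervals from all libraries and blue symbols for R1 libraries (filled) and R2 libraries (open) alone. H1FX in HU lies at -0.49 with an interval that crosses 0, and every black point for siSETD2 against siNT lies between -0.08 and 0.13.

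VE-822 alone, the averaged comparison with the most genes called, held the 1 member called without the block, the macroH2A1 gene. H2AFY had 5.44 and 5.15 FPKM with siNT and 5.29 and 5.30 FPKM with siSETD2 in VE-822. Untreated cells had 6.81 and 6.04 with siNT and 7.17 and 6.16 with siSETD2, and the 8 libraries with HU lay between 6.71 and 7.69 FPKM. All 4 VE-822-alone libraries were below all other 12, as in 10.7% of genes tested. H2AFY fell by 0.26 on the log2 scale (SE 0.0722, adjusted p = 0.0255), where 24.7% of genes were called. The call did not hold when any 1 of 6 libraries was left out (untreated R1 of either siRNA, or any of the 4 VE-822-alone libraries), with values of -0.28 to -0.21 and adjusted p-values of 0.0525 to 0.0985.

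H3F3A was lower in VE-822 by the same size, -0.26 (SE 0.0956, adjusted p = 0.0679, and 0.0288 with the block, where 44.9% of genes were called). With siNT it had 15.4 and 14.8 FPKM against 16.6 and 15.1 untreated, and with siSETD2 13.1 and 13.2 against 21.5 and 15.8. The difference was -0.06 with siNT and -0.46 with siSETD2, where the untreated R1 library is the highest of all 16. Leaving out that library brought the averaged value to -0.16 (adjusted p = 0.166), and leaving out the untreated siSETD2 R2 library brought it to -0.37 (adjusted p = 0.00529, with 35.1% of all genes called). For siSETD2 the adjusted p was 0.0521, and 0.0143 with the block, where 10.9% and 33.3% of genes were called. The responses differed by -0.40 (interval -0.82 to 0.02, adjusted p = 1). H3F3B, its partner, and H2AFJ were higher, at 0.26 (SE 0.142, adjusted p = 0.197) and 0.28 (SE 0.120, adjusted p = 0.106). H2AFZ and H2AFV were at 0.17 and 0.15 and H1FX was at -0.23, and none of these 3 was called. In VE-822 alone the summed level of the 10 markers of other cell types was 39.2 to 46.8 FPKM against 70.7 to 103.6 in untreated cells, with KRT18, a keratin, falling by 1.03 on the log2 scale (adjusted p = 0.000107). CD3D, a T cell receptor subunit gene, rose by 0.60 (adjusted p = 0.00681), with a median of 2.62 FPKM against 1.30 untreated. The 6 bone and line markers summed to 248.7 to 290.4 FPKM against 275.0 to 396.6 FPKM, and RUNX2, a bone transcription factor, rose by 1.67 (adjusted p = 3.88e-05). VIM, the gene for vimentin, fell by 0.59 (adjusted p = 0.0197), a call lost in 5 of the 16 fits that left out 1 library. The part of these markers in the values of H2AFY and H3F3A was not tested. With both drugs, which include the same dose of VE-822, medians were 1.29 FPKM for RUNX2, 68.3 for KRT18, 1.43 for CD3D and 120.9 for VIM. In the same order they were 1.38, 75.05, 1.30 and 124.5 untreated, and 6.01, 37.95, 2.62 and 86.0 in VE-822 alone. Whether the drug or another difference of the VE-822-alone libraries lies behind these shifts was not tested.

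The comparison of the siRNAs asks whether less SETD2 transcript came with other levels of these genes. Averaged over the 4 treatments, none of the 7 genes was called, where 0.13% of genes tested were, and with the block none was called, where 3.88% were. The fold changes lay between -0.08 (H3F3A) and 0.13 (H2AFJ), with a median of 0.02 against -0.01 over all genes tested. The knockdown was partial and uneven: outside VE-822 alone, SETD2 had 2.01 to 2.64 FPKM in siSETD2 R1 libraries and 3.67 to 4.17 in R2. In VE-822 alone it had 4.62 (R1) and 3.95 (R2). For that knockdown, the 95% intervals bound how much could have been missed. They were -0.22 to 0.07 for H3F3A, -0.20 to 0.24 for H3F3B, -0.23 to 0.16 for H2AFZ and -0.08 to 0.15 for H2AFY. The interval was widest for H1FX, at -0.42 to 0.46. At an unadjusted p under 0.05, 10% of all genes tested passed in this comparison, and none of the 7 did. No member had its 8 siSETD2 libraries all above or all below the siNT ones, as 0.0764% and 0.168% of genes did. Within treatments the directions differed. With siSETD2 all 7 genes were higher in untreated cells (0.04 to 0.28), and 6 of 7 were lower in HU (-0.39 to 0.10). In VE-822 alone 3 were higher and 4 lower, and with both drugs 6 were higher and 1 lower. None was called within any treatment, where 0% of genes tested were called without the block.

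Among the 7 genes, the HU response of H3F3A differed most between the siRNAs. In siNT cells it was higher in HU, with 20.4 and 19.3 FPKM against 16.6 and 15.1, and in siSETD2 cells it was lower, with 15.1 and 14.8 against 21.5 and 15.8. With both drugs the arms were alike again, at 19.0 and 21.3 FPKM with siNT and 20.8 and 21.3 with siSETD2. The HU responses were 0.31 and -0.28, and their difference was -0.60 (SE 0.191, interval -1.02 to -0.18). Its unadjusted p was 0.00973 and its adjusted p was 1, with 0 of 13088 genes (0%) called in this comparison and 97 at an unadjusted p under 0.05, so it did not pass. In voom 0 genes were called and 55 had an unadjusted p under 0.05. The H3F3A response with siSETD2 leans on the untreated R1 library, at 21.5 FPKM the highest of all 16, where R2 had 15.8. Without that R1 library the H3F3A value in HU averaged over both siRNAs was 0.12 in place of 0.01. The difference between the siRNAs is given only with that library included. For the other 6 genes the difference in the HU response was between -0.33 (H2AFZ) and -0.05 (H2AFY), and no difference in any drug response was called for any of the 7.

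Fragments assigned to the pseudogene bear on the H3F3A values. H3F3AP4 (ENSG00000235655, chr2:174719908-174720318, plus strand, 411 bases) had a mean of 28.7 FPKM (15.4 to 44.4), on 156 to 462 fragments. That was above H3F3A per merged exon length (17.3 FPKM) and below it per principal transcript length (41.7). H3F3A had 4.63 times as many fragments. Adding the fragments of H3F3AP4 to H3F3A, an alternative chosen after the data were seen, gave a log2 fold change of -0.33 in VE-822 (SE 0.103, adjusted p = 0.0387) and -0.57 for the difference in the HU response (SE 0.207, unadjusted p = 0.0183). H3F3AP4 by itself fell by 0.66 in VE-822 (adjusted p = 0.0148), a call lost when untreated siNT R1 or VE-822-alone R2 of either siRNA was left out (adjusted p up to 0.0624). Its 4 VE-822 libraries had 15.4 to 25.3 FPKM and the 4 untreated ones 25.8 to 44.4, without overlap, as in 16.5% of genes tested.

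**Figure D3:**
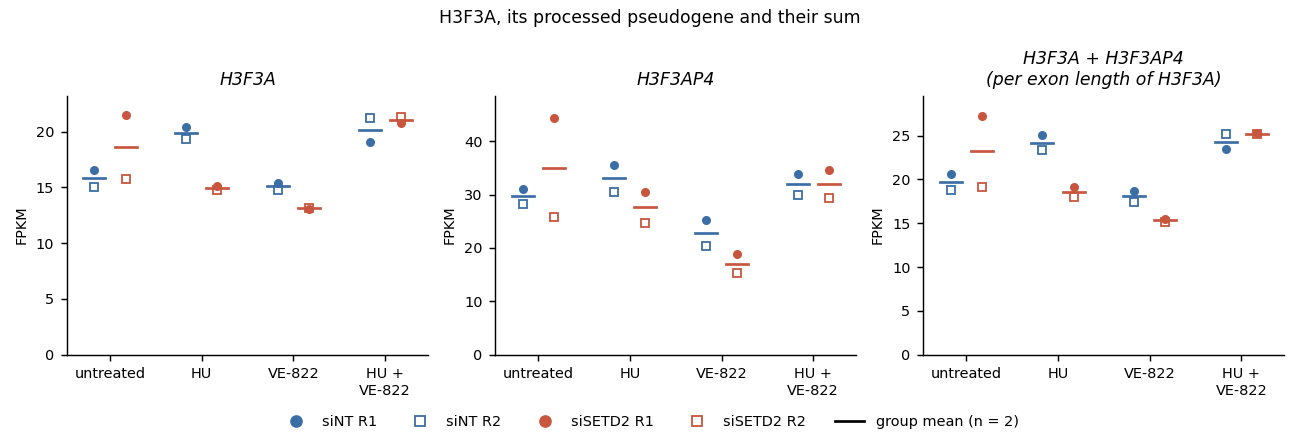
FPKM (vertical axes, from 0) of H3F3A, of H3F3AP4 and of their summed fragments per exon length of H3F3A, by treatment, with symbols as in the plot of all members. H3F3AP4 is lowest in VE-822, at 15.4 to 25.3 FPKM, and H3F3A in HU is at 20.4 and 19.3 FPKM with siNT and at 15.1 and 14.8 FPKM with siSETD2.

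Shares between genes of a pair cancel a factor that raises or lowers both alike. For H3.3, H3F3B supplied 76.2% to 80.1% of the summed FPKM of both genes in untreated libraries and 82.7% to 84.7% in VE-822. The mean difference was 5.79 percentage points (78.0% ± 1.68 against 83.8% ± 0.835, SD, n = 4), and these groups did not overlap. An exact two-sided permutation test within each siRNA gave p = 0.0556, the smallest that its 36 regroupings allow, and 0.111 when adjusted over the 2 shares. In HU the H3F3B share was 75.9% and 78.1% with siNT and 79.6% and 81.6% with siSETD2. For H2A.Z, H2AFZ made up 83.0% to 87.1% in all 16 libraries, and no treatment moved its mean by more than 0.79 percentage points. This share depends on the lengths: with each gene divided by its principal transcript it was 64.6% to 71.5%, where the H3F3B share was 74.8% to 83.9%. The shares with siSETD2 minus those with siNT were 1.13 points for H3F3B and -0.72 for H2AFZ (exact permutation within treatments, 1296 regroupings, n = 8 per group, adjusted p = 0.213 for both).

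**Figure D4:**
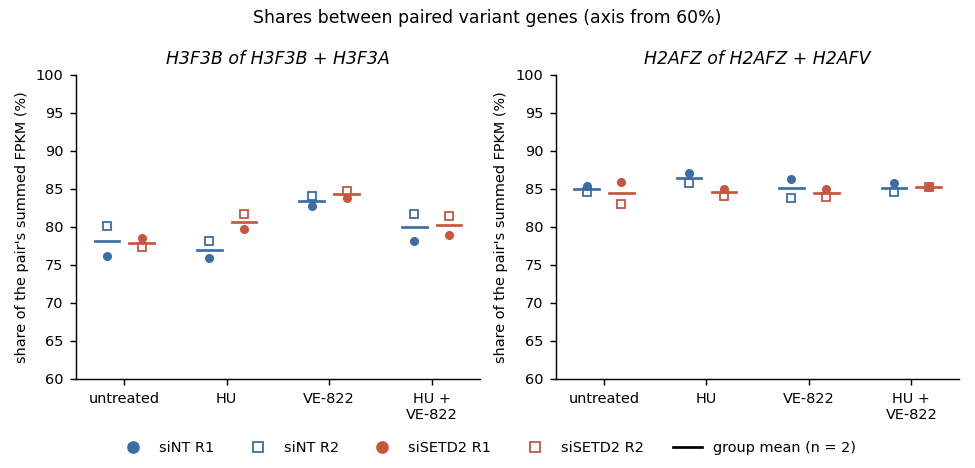
Share (vertical axis, percent, from 60%) of H3F3B and H2AFZ in the summed FPKM of the pair, by treatment, with 1 point per library and a bar at the group mean. The H3F3B share is 82.7% to 84.7% in VE-822 alone and 76.2% to 80.1% without drug.

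The 7 genes differed in what their variation went with. Over the 12 libraries without VE-822 alone, the replicate number held 69.5% and treatment 22.7% of the sum of squares of H1FX. For H2AFV these were 54.8% and 36.8%. H2AFJ, H2AFY, H3F3A and H3F3B had 1.85% to 4.35% with the number, and the siRNA held at most 18.2% (H2AFJ) for any of the 7. The medians over all genes tested were 25.1% for the number, 17.9% for treatment and 5.06% for the siRNA. H1FX and H2AFV were lower in R1 than in R2 in all 8 groups, by 0.30 to 0.91 and 0.04 to 0.47 on the log2 scale.

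**Figure D5:**
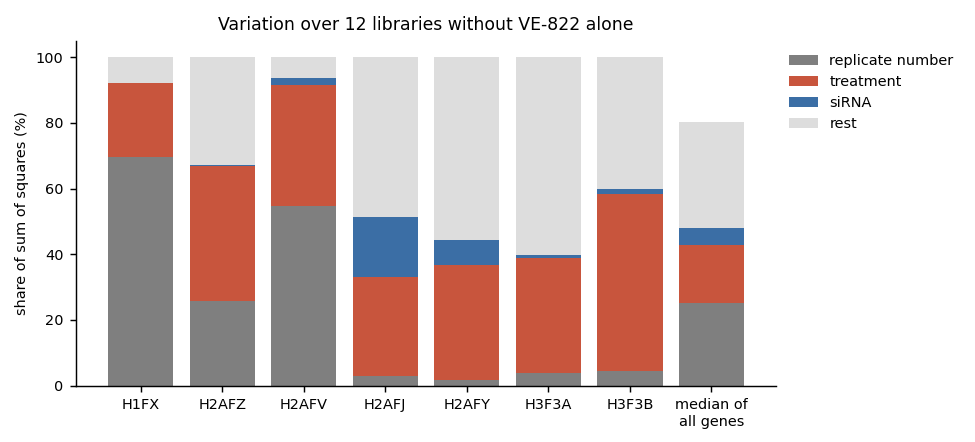
Share of the sum of squares of log2(FPKM + 1) (vertical axis, percent) that went with the replicate number, the treatment, the siRNA and the rest, for each gene over 12 libraries, and the separate medians of these shares over all genes tested, which need not add up to 100%. The grey part for the number is 69.5% for H1FX and 1.85% for H2AFY.

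Between members, the closest pairs over the 16 libraries were H2AFZ with H2AFV (r = 0.845), H2AFY with H3F3A (0.804), H2AFZ with H3F3B (0.799) and H1FX with H2AFV (0.757), while H3F3A and H3F3B had r = 0.474. These values describe the libraries, which share their groups, scaling and replicate number. Each member was set against the other genes that averaged 5 FPKM or more, 6893 of them, or 6894 for H2AFJ. The nearest in pattern to H1FX were SPC24, a kinetochore gene (r = 0.958), GATD1 (0.897) and AC009414.2 (0.897). H2AFZ was nearest to HNRNPA1, an RNA-binding protein gene (0.949), followed by the licensing inhibitor gene GMNN (0.873) and BIRC5 (survivin, 0.868). H2AFV was nearest to HMGB2, a chromatin architectural gene (0.954), with GADD45B (0.913) also among the nearest, and H2AFJ to SNRNP70 (0.914), TMEM160 (0.906) and KMT2E-AS1 (0.902). H2AFY was nearest to SF3B4, a splicing factor gene (0.974), AHCY (0.971) and FOSL1 (0.964). The nearest to H3F3A were SUB1 (0.936), UBE2N (0.927) and RGS10 (0.921), and to H3F3B the ribosomal protein genes RPL12 (0.909) and RPL13A (0.906) and HNRNPF (0.903).

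Other variant genes were followed from a list of 12, of which 3 passed the filter. CENPA, the centromeric H3 variant, was called in both HU comparisons. It lay between 11.2 and 13.7 FPKM in untreated libraries, 6.12 and 7.25 in HU, 12.9 and 17.9 in both drugs, and 12.6 and 14.7 in VE-822 alone. CENPA fell by 0.85 in HU (SE 0.0961, adjusted p = 0.0155) and rose by 1.07 with both drugs against HU (adjusted p = 0.00348), with no overlap of libraries either time. Of all genes tested, 0.107% were called in HU and 0.00764% with both drugs against HU. All HU libraries lay below all untreated ones in 2.19% of genes tested. All libraries with both drugs lay above all HU ones in 3.84%. The call in HU was lost when untreated siNT R2 or any 1 of the 4 HU libraries was left out (adjusted p up to 0.142), and that against HU held in all 16 such fits. Without the VE-822-alone libraries the adjusted p-values were 0.0862 and 0.0589, and with the block added 0.0132 and 0.0154. Both comparisons use the same HU libraries. HJURP, the chaperone that brings CENPA to centromeres, had 12.2 to 18.0 FPKM untreated and 8.28 to 9.68 in HU, a log2 fold change of -0.65 (adjusted p = 0.127, and 0.0271 with the block). With both drugs against HU it was at 0.58 (adjusted p = 0.279, and 0.0456 with the block). With the block 1.6% of all genes tested were called in HU and 1.31% in both drugs against HU. H2AFX, the variant phosphorylated at DNA breaks, had values of -0.16 in HU and 0.29 in VE-822, and H2AFY2, for macroH2A2, of -0.19 and 0.14, none of them called in the fit without the block. With it, H2AFX in VE-822 had an adjusted p of 0.0305, where 44.9% of genes were called.

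Transcripts of the factors that place H3.3 were measured in all 10 listed cases, and whether working protein is made from them was not measured. HIRA had a mean of 4.39 FPKM, ATRX 3.93 and DAXX 26.2. None of the 10 was called for siSETD2, in HU or in both drugs without the block. With it, ATRX was called for siSETD2 at -0.21 (adjusted p = 0.0420), where 3.88% of all genes tested were. UBN1, a HIRA partner, was called for both drugs against untreated at 0.29 (adjusted p = 0.0495), where 7.3% were. In VE-822, 1 of 10 fell, where 13.4% of all genes tested fell. DAXX had 19.8 to 20.8 FPKM against 27.1 to 33.0 untreated, a log2 fold change of -0.48 (SE 0.0836, adjusted p = 0.00288). These groups did not overlap, as in 16.5% of genes tested in that direction. ZMYND11, a reader of H3.3 methylated at lysine 36, had a mean of 2.03 FPKM.

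Among 16 genes for H2A.Z exchange and its chaperones, 15 passed the filter, and in VE-822 4 rose and 3 fell, where 24.7% of all genes tested were called. Called or not, 6 of the 15 were higher and 9 lower, with a median of -0.17. EPC1 (0.58), DMAP1 (0.47), KAT5 (0.44) and TRRAP (0.35) rose. RUVBL1 (-0.58) and RUVBL2 (-0.33), ATPases shared by several remodellers, and ANP32E (-0.31), which removes H2A.Z, fell. The adjusted p-values of these 7 called genes lay between 0.00021 and 0.0466. EPC1 and KAT5 were called in all 16 fits that left out 1 library, and the other 5 lost the call in 6 to 14 of them (adjusted p up to 0.154). EPC1 had 3.89 to 4.06 FPKM in VE-822 and 2.22 to 2.48 untreated, and RUVBL1 had 5.97 to 6.53 against 7.90 to 13.7, in both cases with no overlap. Such gaps from untreated cells were seen in 14.6% of genes upward and 16.5% downward. No gene of this list was called in the other averaged comparisons without the block. With the block EPC1 was called in HU (0.30, adjusted p = 0.0306), where 1.6% of all genes tested were. EPC1 and KAT5 were called with it in both drugs against untreated (0.37 and 0.24, adjusted p = 0.00756 and 0.0413), where 7.3% were. Of 14 other histone chaperone genes, 13 passed, and in the averaged comparisons without the block SSRP1, a subunit of FACT, alone was called, at -0.28 in VE-822 (adjusted p = 0.0442). That call was lost in 11 of the 16 fits that left out 1 library (adjusted p up to 0.139). With the block 2 of the 13 rose and 5 fell in VE-822, where 20.7% of all genes tested rose and 24.2% fell.

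Replication-dependent histone genes served as the contrast to the variants. Of 71, 14 passed the filter, and whether the library preparation kept mRNAs without a poly(A) tail is not given in the sources used here. HIST1H2BK (mean 115.7 FPKM) and HIST1H1C (62.0) were plentiful, while HIST1H4C was at 0.152 FPKM and HIST1H1B at 0 in all 16 libraries. Whether the 14 stand for mRNAs that end in a stem-loop was not tested. In HU 13 of the 14 were lower and none was called, with a median of -0.25 (members -0.05, all genes tested 0.01). In VE-822 11 of the 14 were lower, again with none called, and the median was -0.37. With the block HIST1H2BJ was called in HU at -0.67 (adjusted p = 0.0287), where 1.6% of all genes were called. In VE-822, 7 of the 14 were called lower with the block, where 24.2% of all genes were. Of the 9 factors that make or process these mRNAs, LSM10, a subunit of the U7 small nuclear ribonucleoprotein, and ERI1, an exonuclease, fell in VE-822 by 0.76 and 0.47 (adjusted p = 0.00498 and 0.00182), a share of the list close to the 24.7% of all genes called there. With the block 1 of the 9 rose and 3 fell in VE-822, where 20.7% of all genes tested rose and 24.2% fell. None of the 9 was called in the other averaged comparisons in either fit.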

How the data were processed

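RNA from U2OS cells (8 groups, 2 libraries each) was deposited by the authors as 1 table of FPKM per gene, with no raw counts used here. The submitters' processing notes name FastQC, STAR 2.6.1d, featureCounts 1.5.0-p3, DESeq2 1.26.0 and build hg38. Gene models came from GENCODE release 29, which holds all 58735 identifiers. FPKM multiplied by exon length and 1 factor per library gave whole fragments (within 0.01) for 100% of values, and the deposited scale carries median-of-ratios factors. The 13088 genes averaging 1 FPKM or more entered a limma-trend fit of log2(FPKM + 1), with 1 mean per group and 8 residual degrees of freedom (R 4.3.3, limma 3.58.1). Benjamini-Hochberg adjustment ran over all genes within each of 21 comparisons, at a threshold of 0.05. Fold changes understate low genes.

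R1 minus R2 correlated across genes at 0.36 to 0.75 between the 6 groups without VE-822 alone (15 pairs) at -0.05 to 0.30 in pairs with 1 VE-822-alone group and at 0.39 between the 2 VE-822-alone groups, so the replicate number, paired through these data and not the labels, was fitted as a block in those 6 groups. Named beside all members were list genes called in an averaged comparison (at most 4 per list and comparison), HIRA, ATRX, DAXX and ZMYND11, and the 3 nearest genes by r; 1 of these nearest genes and 1 of the 8 genes chosen are not reported here. Named after their values were seen were genes called with the block alone, TRRAP, RUVBL2, ANP32E, H2AFX and H2AFY2. Members and lists were chosen with earlier results of these data known. Alternatives covered the pseudocount, filters, scaling, voom, robust estimation, the block and leaving out libraries.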

Additional observations from a re-analysis of the deposited data

How the results depend on the processing

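The 35 fold changes of the members in averaged comparisons had 917 alternative values, of which 877 kept direction and call, 27 reversed, 6 lost a call and 7 gained one. Reversals lay near 0: with library totals H2AFZ for siSETD2 came to 0.00084 and H3F3A in HU to -0.0033, and H3F3A in HU came to -0.00062 with median-of-ratios rescaling, -0.0065 in voom and -0.0024 with H3F3AP4 added. Leaving out 1 library gave, for siSETD2, H1FX -0.094 to 0.13, H2AFZ -0.089 to 0.014, H2AFV -0.017 to 0.10 and H3F3B -0.048 to 0.086. For HU it gave H2AFZ -0.15 to 0.045, H3F3A -0.093 to 0.12 and H3F3B -0.049 to 0.22. The replicate block over 8 groups, and in 6 groups, gave 147 and 508 genes called for siSETD2 (17 without), 45 and 209 for HU (14), 5122 and 5874 for VE-822 (3237), 20 and 172 for both drugs against HU (1), and 413 and 956 against untreated (5). Under either block 2 members were called in VE-822 (1 without), and under the block in 6 groups 1 in both drugs against HU (0). Without the filter 52 genes were called for siSETD2, 46 for HU, 25 for both drugs against HU and 40 against untreated. With a filter at 5 FPKM, which leaves H2AFJ without a value, these were 28 for siSETD2, 1852 for VE-822, 2 for both drugs against HU and 18 against untreated. In voom 7 genes were called for siSETD2 and 2 for both drugs against HU, and with library totals 2 for the latter and 27 against untreated, where median-of-ratios rescaling gave 8 and a pseudocount of 0.1 gave 11. Without the VE-822-alone libraries 0 genes were called for HU and for both drugs in either comparison, and with the replicate block added 72, 56 and 413. Leaving out 1 library gave 0 to 208 genes for siSETD2, 0 to 52 for HU, 1772 to 4599 for VE-822, 1 to 3 for both drugs against HU and 0 to 430 against untreated, with 0 to 2 members called in VE-822 and 0 to 2 in both drugs against untreated. The cause of these differences was not tested.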
